A study of Rattus norvegicus with 10 samples.

Results

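Interferon-stimulated genes were examined in the hearts of fetal rats from diabetic and control dams. The set held 9 genes, which were taken by symbol from the gene column of the deposited expression table: Bst2, Rsad2, Ifit1, Ifit3, Ifi44, Isg15, Usp18, Irf7 and Stat2. All 9 were found among the 18025 genes listed. Whole heart tissue of wt Sprague-Dawley fetuses was taken on embryonic day 19.5. In all, 5 libraries were made from the control (CON) group and 5 from the hyperglycemia (HG) group. The HG dams had received intraperitoneal streptozotocin (STZ), a toxin of the insulin-producing beta cells, once daily on 3 consecutive days after mating, and the CON dams received the citrate buffer alone. The labels do not tie a fetus to its dam or litter and give no sex. The study's methods speak of pooled RNA, whereas the table holds a separate column with its own values for each of the 10 libraries, so the p-values measure only the spread between these libraries, which may be technical.

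Cells release type I interferons when viral or misplaced nucleic acid is sensed. The interferon binds a receptor made of Ifnar1 and Ifnar2, the Janus kinases at the receptor phosphorylate Stat proteins such as Stat2, which join Irf9 in a complex that binds a DNA element, the interferon-stimulated response element (ISRE), in front of target genes. The genes switched on in this way are the interferon-stimulated genes. They include proteins that hinder viruses directly (Bst2, Rsad2, the Ifit family), the ubiquitin-like protein Isg15 and its protease Usp18, and the factors Stat2 and Irf7, which feed back into the pathway.

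In HG hearts, 3 of the 8 members that could be tested were lower and 1 was higher. Bst2 fell to 42.2% of its CON mean, Rsad2 to 45.4% and Ifit1 to 51.8%, whereas Ifi44 rose to 162% of its CON mean. The other 4 tested members (Irf7, Isg15, Usp18 and Stat2) did not pass the test, and Ifit3 was too low to be tested. Levels are given as FPKM, reads scaled to gene length and library size. Fold changes are differences of mean log2(FPKM + 0.1) between HG and CON from limma, fitted to 14542 genes (those averaging 0.1 FPKM or more), and a gene was called at a Benjamini-Hochberg adjusted p under 0.05. By this rule 40.1% of all genes tested were called, 28.4% as higher and 11.8% as lower, so that 4 called members of 8 stand against a background in which calls were common. The median log2 fold change was -0.46 over the 8 members, 0.07 over 52 other interferon-induced genes and 0.09 over all genes tested. The members and the other list were chosen with earlier results of these data known. The members' median therefore does not describe interferon-stimulated genes in general. A differentially expressed gene (DEG) also had to change by more than 1 on the log2 scale. Bst2 and Rsad2 were lower DEGs, as were 1.07% of all genes tested. Their CON and HG libraries did not overlap, a pattern seen in this direction in 8.12% of genes tested.

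**Figure D1:**
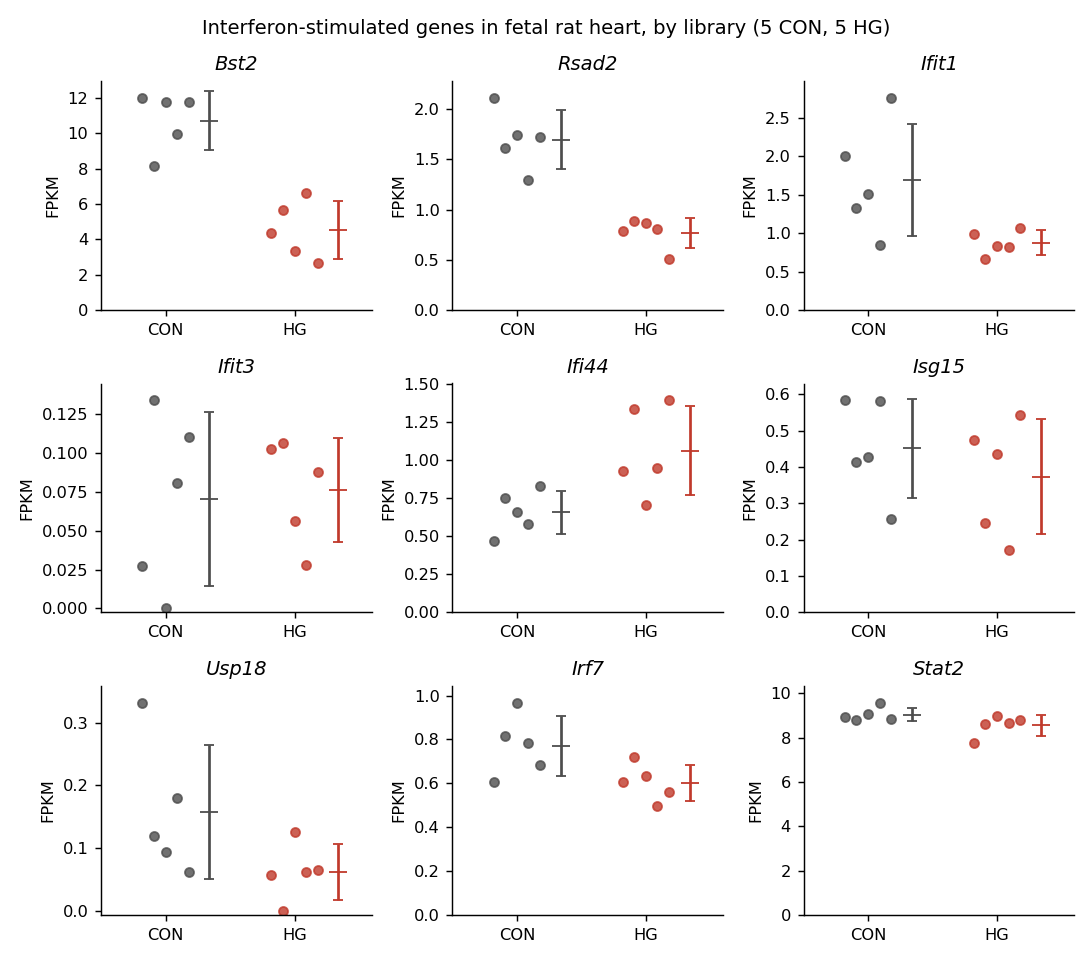
FPKM (vertical axes, 1 panel per gene) of the 9 interferon-stimulated genes in each CON and HG library, with the mean ± SD of each group beside its 5 points. Bst2 and Rsad2 show no overlap, with all HG points below all CON points, whereas the groups of the other 7 genes overlapped.

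Promoter sequences are shown here because interferon-stimulated genes are known for a shared element. The sequences were taken from RefSeq (build GRCr8, which is not the build of the reads), which gives 250 bases before and 50 bases after a start of the gene. For some genes another annotated start lies further upstream, so that the last bases before the start used here are within the gene's span: 125 bases in Rsad2, 29 in Ifi44, 65 in Stat2 and the whole 250 in Irf7. Of the 9 members, 6 were in that table (Bst2, Rsad2, Ifi44, Ifit3, Irf7 and Stat2). The core of the ISRE was searched as GAAANNGAAA on both strands, where N is any base. It was found in 5 of the 6 windows and in 3.77% of all 27457 promoter windows; no match was found in the Stat2 window. The 30 bases around each match follow, read 5′ to 3′ on the strand of the gene, with the matching bases in capitals.
Bst2, chr16:18255076-18255105, minus strand, with a pair of overlapping matches: tttccagGAAAATGAAACTGAAAggtggca
Rsad2, chr6:48788248-48788277, minus strand: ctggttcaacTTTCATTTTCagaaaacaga
Ifi44, chr2:243303847-243303876, minus strand: gcacactgagTTTCAGTTTCatttcccagg
Ifi44, chr2:243303795-243303824, minus strand: aagtttctctTTTCGTTTTCtgcaggcttg
Ifit3, chr1:241527272-241527301, plus strand: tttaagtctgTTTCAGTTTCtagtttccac
Irf7, chr1:205800073-205800102, minus strand: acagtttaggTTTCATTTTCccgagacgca

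Counted from the start given in the table, the match lay at -131 to -116 in Bst2, -147 to -138 in Rsad2, -44 to -35 in Ifit3 and -69 to -60 in Irf7. Ifi44 held one match at -26 to -17 and another at 27 to 36. Both matches of Ifi44 and that of Irf7 lay within the annotated span of the gene, whereas those of Bst2, Rsad2 and Ifit3 lay before it. The members with a match were thus the 2 lower DEGs, the gene that rose, Irf7, which was not called, and Ifit3, which was too low to be tested. Among the 11733 tested genes with a window in the table, 335 held a match. Of these, 10.7% were called lower and 27.5% higher, close to the 11.8% and 29.1% of genes without one. A second element, TTCNNNGAA, to which Stat dimers bind, was found in Bst2 alone among the 6 windows and in 8.68% of all windows.

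The whole stretch before the annotated gene is printed for Bst2 and Rsad2, the members with the largest decreases, to show where in the promoter the element sits. For Rsad2 the 125 bases within the annotated gene are left out.
Bst2, chr16:18254968-18255217, minus strand: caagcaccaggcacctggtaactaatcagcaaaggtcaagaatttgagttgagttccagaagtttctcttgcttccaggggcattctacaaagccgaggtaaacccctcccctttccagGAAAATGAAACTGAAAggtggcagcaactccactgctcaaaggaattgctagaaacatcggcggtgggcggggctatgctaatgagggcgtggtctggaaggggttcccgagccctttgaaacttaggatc
Rsad2, chr6:48788246-48788370, minus strand: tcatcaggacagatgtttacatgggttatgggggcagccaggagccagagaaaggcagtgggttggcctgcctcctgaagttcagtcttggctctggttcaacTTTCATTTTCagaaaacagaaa

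The depth was similar in both groups, with 17639895 to 18240006 reads on genes in CON and 16672876 to 19109844 in HG (two-sided exact permutation test, p = 0.77). Reads were recovered from the FPKM steps. The heart label held, since all 11 cardiomyocyte genes examined were abundant. Of these, 8 were called lower in HG and 1 higher (Nppa, log2 fold change 0.71). The share called was 81.8%, against 40.1% of all genes tested, and the share of all genes called lower was 11.8%. The number lower was 9 with median-of-ratios factors and 6 with quantile normalization. The summed level of the 11 genes ranged from 28876 to 30369 FPKM in CON and from 24599 to 28471 FPKM in HG. Hemoglobin genes took 2.27 to 4.21% of all FPKM in CON and 1.86 to 2.56% in HG (exact permutation test, p = 0.032), and leaving them out did not change which members were called. In tissue RNA of this kind, fewer cells of a type and less RNA per cell cannot be told apart.

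Bst2 encodes tetherin, a membrane protein that holds budding enveloped viruses at the cell surface. It was the most abundant of the direct antiviral members. The CON libraries 1 to 5 had 12.0, 8.12, 11.7, 9.94 and 11.8 FPKM, and the HG libraries 1 to 5 had 4.34, 5.67, 3.33, 6.61 and 2.64 FPKM. The highest HG library was thus below the lowest CON library, and the HG libraries spread more widely relative to their mean. The means were 10.7 ± 1.67 and 4.52 ± 1.64 FPKM (SD, n = 5 each), a log2 fold change of -1.29 (SE 0.214, 95% interval -1.75 to -0.82) with a limma adjusted p of 0.000575. These levels rested on 118 to 173 reads in the CON libraries and on 35 to 93 in the HG libraries. The call held under all 21 other settings, where the log2 fold change ranged from -1.44 to -1.12.

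Rsad2 encodes viperin, an enzyme that makes a chain-terminating nucleotide against viral polymerases. Its level was 2.11, 1.61, 1.74, 1.29 and 1.72 FPKM in CON libraries 1 to 5. In HG libraries 1 to 5 it was 0.784, 0.886, 0.864, 0.805 and 0.511 FPKM. No HG library reached 1 FPKM, whereas every CON library exceeded it, and HG 5 stood below the other HG libraries. The means were 1.70 ± 0.294 and 0.770 ± 0.150 FPKM (SD, n = 5 each), from 91 to 148 and 33 to 63 reads per library. The log2 fold change was -1.05 (SE 0.157, 95% interval -1.39 to -0.71; limma adjusted p = 0.000279). It was called under all 21 other settings, but it lay close to the DEG limit of 1 and missed that limit without CON 1 (-0.97), without HG 5 (-0.93) and with a pseudocount of 1 (-0.61).

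Ifit1, which binds viral RNA by its 5′ end, was the third member that fell. It showed 2.00, 1.33, 1.51, 0.851 and 2.76 FPKM in CON libraries 1 to 5. The values in HG libraries 1 to 5 were 0.987, 0.658, 0.837, 0.822 and 1.07 FPKM. The CON libraries spread over a wide range, and CON 4 lay within the HG range. The means were 1.69 ± 0.728 and 0.876 ± 0.161 FPKM (SD, n = 5 each), with a log2 fold change of -0.79 (SE 0.247; limma adjusted p = 0.0221). Here single libraries mattered: the adjusted p rose to 0.055 without CON 1 and to 0.053 without HG 2. In the RefSeq annotation Ifit1 lies within the span of Ifit1bl, a related gene, so reads may not be cleanly separated between them. The CON libraries averaged 0.837 ± 0.161 and the HG libraries 0.769 ± 0.106 FPKM of Ifit1bl (SD, n = 5 each), which was not called (limma adjusted p = 0.63).

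Ifit3, a partner protein of Ifit1, was at the limit of detection. It had 0.027, 0.134, 0, 0.0807 and 0.111 FPKM in CON libraries 1 to 5 and 0.102, 0.107, 0.0564, 0.0277 and 0.0881 FPKM in HG libraries 1 to 5, which stood for 0 to 5 reads per library. The groups overlapped fully (13 reads over all CON and 14 over all HG libraries). An exact two-sided permutation test of the FPKM values gave p = 0.83, and without the filter on low values the log2 fold change was 0.09 (95% interval -0.43 to 0.61). A difference of this gene was therefore not detectable at this depth.

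Ifi44, an interferon-induced cytoplasmic protein, moved in the opposite direction to Bst2, Rsad2 and Ifit1. Its level in CON libraries 1 to 5 was 0.471, 0.748, 0.658, 0.581 and 0.829 FPKM. In HG libraries 1 to 5 it was 0.928, 1.34, 0.708, 0.947 and 1.39 FPKM. HG 3 lay within the CON range, and the other 4 HG libraries exceeded every CON library. The means were 0.657 ± 0.140 and 1.06 ± 0.292 FPKM (SD, n = 5 each), from 25 to 43 and 36 to 72 reads per library. The log2 fold change was 0.60 (SE 0.190, 95% interval 0.19 to 1.01; limma adjusted p = 0.0242). The call was lost when CON 1 (adjusted p = 0.059), CON 4 (0.051), HG 2 (0.060) or HG 5 (0.059) was left out.

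Isg15 and Usp18 form a modifier system: Isg15 is attached to proteins after interferon treatment, and Usp18 removes it and also blocks the receptor. Both were rare in these hearts. Isg15 had 0.583, 0.413, 0.427, 0.580 and 0.256 FPKM in CON libraries 1 to 5 and 0.473, 0.246, 0.435, 0.171 and 0.543 FPKM in HG libraries 1 to 5. These values rested on 2 to 7 reads per library, and the groups overlapped over most of their range. The log2 fold change was -0.26 with a 95% interval of -0.83 to 0.32 (limma adjusted p = 0.48).

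Usp18 had 0.332, 0.120, 0.0929, 0.180 and 0.0618 FPKM in CON libraries 1 to 5 and 0.0572, 0, 0.126, 0.0619 and 0.0656 FPKM in HG libraries 1 to 5. CON 1 and CON 4 were above all HG libraries, and the other 3 CON libraries overlapped with them. The HG mean was 39.5% of the CON mean, from 26 reads over all CON and 10 over all HG libraries. The log2 fold change was -0.62 with a 95% interval of -1.29 to 0.04 (limma adjusted p = 0.12), so that with 0 to 11 reads per library neither an absent difference nor a decrease of more than 2-fold lay outside the interval. Without CON 1 the mean of Usp18 fell under 0.1 FPKM and it was no longer tested.

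Irf7, the factor that amplifies interferon production, was also low. Its level was 0.607, 0.814, 0.966, 0.786 and 0.684 FPKM in CON libraries 1 to 5. In HG libraries 1 to 5 it was 0.604, 0.718, 0.634, 0.498 and 0.561 FPKM. HG 2 and HG 3 lay within the CON range, and the other 3 HG libraries just below it. The log2 fold change was -0.30 (SE 0.142, 95% interval -0.61 to 0.01; limma adjusted p = 0.11), and it did not pass the threshold under any of 20 other settings.

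Stat2, the subunit that brings an activating domain to the complex with Irf9, was one of 2 members above 5 FPKM. It had 8.95, 8.79, 9.06, 9.57 and 8.83 FPKM in CON libraries 1 to 5. In HG libraries 1 to 5 it had 7.74, 8.63, 8.96, 8.65 and 8.78 FPKM. HG 1 stood below the other HG libraries, and HG 3 alone lay within the CON range. The means were 9.04 ± 0.312 and 8.55 ± 0.475 FPKM (SD, n = 5 each), and 502 to 597 reads per library lay behind them. The log2 fold change was -0.08 (SE 0.0518, 95% interval -0.19 to 0.03; limma adjusted p = 0.24). This call depended on the scaling between libraries: Stat2 was called lower with median-of-ratios factors (-0.17, adjusted p = 0.021) and with quantile normalization (-0.17, adjusted p = 0.018).

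The order of the members' FPKM levels, which are per gene length, differed between the groups. In CON, Bst2 and Stat2 came first and overlapped. Next came Rsad2 and Ifit1, whose ranges also overlapped, followed by Irf7, Ifi44 and Isg15 below 1 FPKM, with Usp18 and Ifit3 last. In HG, every library had less Bst2 than Stat2, and Ifi44 took a place among Rsad2 and Ifit1, whose ranges it overlapped. Within each library, the ratio of Bst2 to Stat2 was 0.924 to 1.34 in CON and 0.300 to 0.764 in HG. Such a ratio is free of the scaling between libraries, and the groups did not overlap. Bst2 alone did not overlap either and Stat2 differed little (log2 fold change -0.08), so this ratio largely restates the result of Bst2.

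**Figure D2:**
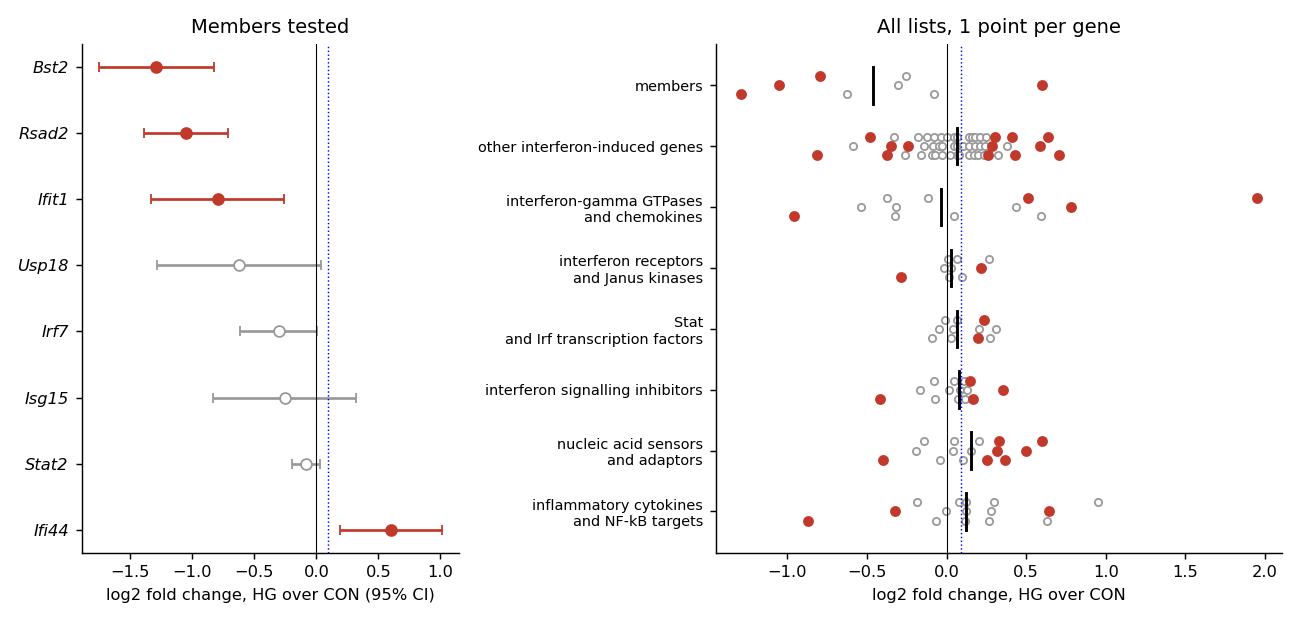
Log2 fold change of HG over CON for the 8 members tested with 95% intervals (left), and for every tested gene of the members and 7 pathway lists (right, 1 point per gene, black bar for the median of the list). Filled red points passed an adjusted p of 0.05, open points did not, and the dotted line marks the median of all genes tested at 0.09. Bst2, Rsad2 and Ifit1 lie at the low end, Ifi44 at 0.60, and the medians of the other lists lie between -0.04 and 0.15.

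Members were then set beside neighbouring or related genes. These partner genes were picked by position in the RefSeq annotation or by family after their values had been seen, so they are described without a test of the ratio. Cmpk2, a nucleotide kinase gene next to Rsad2, averaged 1.15 ± 0.135 (CON) and 1.19 ± 0.128 (HG) FPKM (SD, n = 5 each), a log2 fold change of 0.05 with a 95% interval of -0.19 to 0.29 (limma adjusted p = 0.76). The ratio of Rsad2 to Cmpk2 within a library was 1.04 to 1.95 in CON and 0.482 to 0.738 in HG. Every CON library had more Rsad2 than Cmpk2 and every HG library had less.

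Ifi44l, the gene next to Ifi44, averaged 0.407 ± 0.112 (CON) and 0.239 ± 0.0897 (HG) FPKM (SD, n = 5 each) from 6 to 20 reads per library. Its log2 fold change was -0.59 with a limma adjusted p of 0.056, opposite in sign to that of Ifi44, and it passed the threshold with median-of-ratios factors (adjusted p = 0.042). The ratio of Ifi44 to Ifi44l had a median of 1.39 in CON and 6.01 in HG, with overlapping groups. Ifit2, of the same cluster as Ifit1 and Ifit3, averaged 2.09 ± 0.177 (CON) and 2.50 ± 0.343 (HG) FPKM (SD, n = 5 each), with a log2 fold change of 0.24 (limma adjusted p = 0.080). The ratio of Ifit1 to Ifit2 had a median of 0.653 in CON and 0.349 in HG. Of these 3 pairs, Rsad2 and Cmpk2 were the one whose ratios did not overlap between the groups. Rsad2 alone did not overlap either and Cmpk2 differed little (log2 fold change 0.05), so this ratio largely restates the result of Rsad2.

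**Figure D3:**
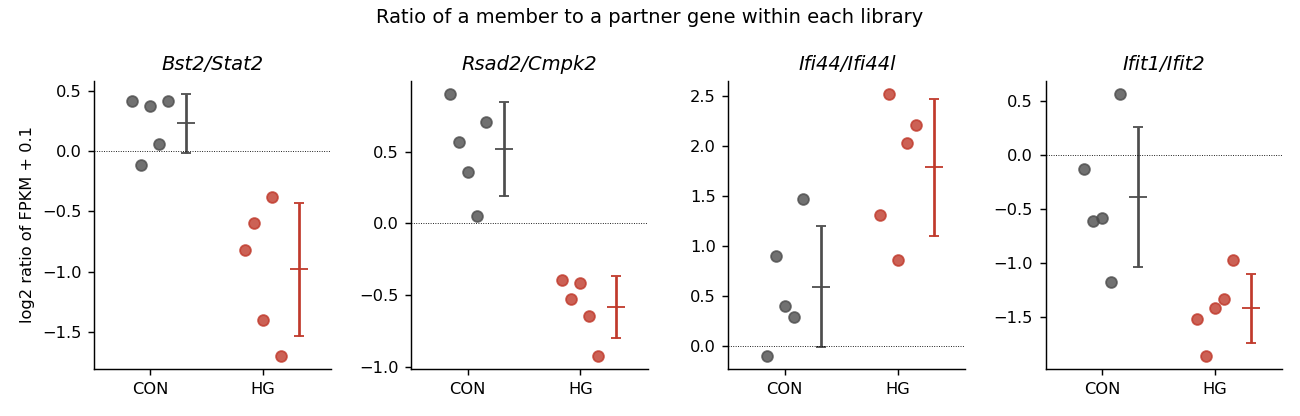
Log2 ratio of a member to a partner gene, each as FPKM + 0.1 (vertical axes), in each of the 5 CON and 5 HG libraries, with mean ± SD of each group. The ratios of Bst2 to Stat2 and of Rsad2 to Cmpk2 do not overlap between the groups, whereas those of Ifi44 to Ifi44l and of Ifit1 to Ifit2 do.

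Calls among the wider set of interferon-induced genes went in both directions. Of 64 other interferon-induced genes, 52 were tested: 8 were higher, 5 were lower and the rest were not called, with a median log2 fold change of 0.07. The share called was thus 25%, below the 40.1% over all genes tested (28.4% higher and 11.8% lower). None of the 13 was a DEG. The split depended on scaling, with 7 higher and 8 lower under median-of-ratios factors. Those that rose included Tdrd7 (5.07 ± 0.0896 to 6.88 ± 0.546 FPKM, log2 fold change 0.43), Slfn13 (0.59), Ifitm1 (0.41), which blocks viral entry, and Ogfr (0.29). Eif2ak2, the kinase that stops translation on sensing double-stranded RNA, rose by 0.31 on the log2 scale (limma adjusted p = 0.0079). The lower genes were Znfx1 (-0.37), Ifi35 (-0.48), Slfn5 (-0.24), Slfn3 (-0.35) and Oas1b (-0.81), of which Slfn3 and Oas1b each lost the call under 11 of 20 other settings.

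Genes known mainly as targets of interferon gamma were rare in both groups. Of 12 tested, 3 were higher and 1 lower (33.3% called, against 40.1% of all genes tested). Under median-of-ratios factors there were 2 in each direction. Gbp6, a guanylate-binding protein, rose from 0.327 ± 0.339 FPKM to 1.14 ± 0.224 FPKM (SD, n = 5 each), a log2 fold change of 1.95 (limma adjusted p = 0.0074). Irgm (0.78) and LOC685067, listed as Gbp7 (0.51), also rose. LOC685067 lost the call in 10 of 20 other settings, among them median-of-ratios factors (limma adjusted p = 0.082) and the replicate block (0.070). The chemokine gene Cxcl11 fell by 0.96 on the log2 scale from 0.242 to 0.0737 FPKM, with at most 9 reads in any library. Cxcl10, another chemokine of this group, was at 0.109 ± 0.0742 and 0.214 ± 0.112 FPKM (log2 fold change 0.59, limma adjusted p = 0.20).

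Upstream of the members, 9 genes of receptors and Janus kinases were tested, of which 22.2% were called, against 40.1% of all genes tested. The type I receptor genes Ifnar1 (log2 fold change 0.10) and Ifnar2 (0.07) did not pass the test. Ifngr2, of the interferon gamma receptor, rose (0.22, limma adjusted p = 0.0021) and Il10rb, shared with the type III receptor, fell (-0.28, adjusted p = 0.030). The call of Il10rb was lost without CON 3 (adjusted p = 0.075), CON 4 (0.072), HG 1 (0.070), HG 2 (0.060) or HG 4 (0.053), and that of Ifngr2 with median-of-ratios factors (0.054). Of 14 interferon genes listed, a single one was matched, and it was too low to be tested.

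Among 11 Stat and Irf factors examined beside the members, 2 rose (18.2% called, against 40.1% of all genes tested). Irf3, which acts with Irf7 downstream of nucleic acid sensors, rose from 29.8 to 35.1 FPKM (log2 fold change 0.23, limma adjusted p = 0.017), but not with median-of-ratios factors (0.14, adjusted p = 0.10) or quantile normalization (0.18, adjusted p = 0.072). Stat6, the factor of interleukin-4 signalling, rose by 0.20 on the log2 scale (adjusted p = 0.0064), and likewise not with median-of-ratios factors (0.11, adjusted p = 0.086) or quantile normalization (0.11, adjusted p = 0.073). Irf9, the DNA-binding partner of Stat2, was at 3.74 ± 0.279 and 3.82 ± 0.358 FPKM (log2 fold change 0.03, adjusted p = 0.79).

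Of 14 inhibitors of interferon signalling, Socs3 (0.35), Pias3 (0.17) and Pias1 (0.15) rose and Cish (-0.42) fell. The share called was 28.6%, against 40.1% of all genes tested. Single calls depended on the setting: Pias1 lost its call in 11 of 21 other settings, Socs3 in 8, Cish in 7 and Pias3 in 2. Under median-of-ratios factors 0 were higher and 4 lower, while the split over all genes tested went from 4127 higher and 1709 lower to 2289 higher and 2545 lower. Of 15 nucleic acid sensors and adaptors tested, 6 were higher and 1 lower (4 and 1 with median-of-ratios factors). The share called, 46.7%, was near the 40.1% over all genes tested. Ikbke, a kinase that activates Irf3 and Irf7, rose from 0.971 ± 0.119 to 1.54 ± 0.308 FPKM (log2 fold change 0.60, limma adjusted p = 0.0050), and Tlr3 (0.50), Samhd1 (0.33), Rnaseh2b (0.31) and Ddx41 (0.25) rose as well. The sixth was Sting1 (0.36, adjusted p = 0.031), the adaptor for DNA sensing, which is named here outside the naming rule. Sting1 and Samhd1 both lost the call with median-of-ratios factors (adjusted p = 0.090 and 0.088) and with quantile normalization (0.089 and 0.12), and Sting1 lost it in 9 of 21 other settings in all. Mavs, the adaptor for RNA sensing, fell from 12.8 ± 0.992 to 9.67 ± 0.804 FPKM (-0.40, adjusted p = 0.000657). Of 15 inflammatory cytokines and NF-kB targets, 20% were called: Nfkbiz rose (0.64), and Nfkb2 (-0.32) and Cxcl1 (-0.87) fell. Cxcl1 had at most 8 reads in a library and lost the call in 7 of 20 other settings, among them the replicate block (adjusted p = 0.053) and voom on reads (0.082).

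Among markers of other cells that express interferon-stimulated genes, the share called was no higher than the 40.1% over all genes tested. It was 38.5% for macrophage, 22.2% for endothelial, 20% for neutrophil and for plasmacytoid dendritic cell, and 0% for lymphocyte markers. Of 13 macrophage markers, 3 were higher (Adgre1, Cd68 and C1qa) and 2 lower (Cd163 and Lyz2), and their summed level was 54.6 to 71.1 FPKM in CON and 62.9 to 78.4 FPKM in HG. The 2 DEGs among them went in opposite directions. Cd163 fell from 0.721 to 0.157 FPKM, a log2 fold change of -1.77 (limma adjusted p = 0.000865). Adgre1 rose from 0.535 to 1.18 FPKM, a log2 fold change of 1.00 (limma adjusted p = 0.000661). The median log2 fold change of the macrophage list was 0.16. Of 5 tested neutrophil markers, S100a9 was lower (-1.33) and the summed level of that list was 2.46 to 5.45 FPKM in CON and 0.691 to 4.17 FPKM in HG. Endothelial markers summed to 350 to 396 FPKM in CON and 372 to 419 FPKM in HG, with 2 of 9 higher. Lymphocyte markers summed to 2.35 to 3.88 and 2.68 to 3.16 FPKM with none of 5 tested called, and the defining genes Cd3e and Ms4a1 had at most 1 read in any library of either group. The plasmacytoid dendritic cell list summed to 17.1 to 20.7 FPKM in CON and 20.7 to 23.6 FPKM in HG, with a median log2 fold change of 0.20. Of its 5 tested genes, Il3ra was called higher (9.24 to 12.3 FPKM, log2 fold change 0.41, limma adjusted p = 0.0068), whereas Siglech, which defines these cells, had at most 2 reads in any library. The part of these cells in the members' levels was not tested.

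For the 4 members averaging 1 FPKM or more, the genes most alike in their variation among the libraries were sought over 11708 other genes, after subtraction of the group mean, as Pearson's r over 10 libraries. Bst2 varied most like Gclm (0.98), Pcbp4 (0.97) and St6galnac4 (0.96). For Rsad2 they were Ccnjl (0.97), Rnf26 (0.95) and Borcs6 (0.94), for Ifit1 they were Lef1 (0.92), P2ry2 (0.90) and Rps19bp1 (0.88), and for Stat2 they were Rassf9 (0.94), RGD1306227 (0.93) and Abcc4 (0.92). None of the 12 was a member, but only these 4 members took part in the search. Between members, r was highest for Bst2 with Rsad2 (0.61) and lowest for Ifit1 with Stat2 (-0.45). The 12 listed values are the highest of many correlations, all points share their libraries and depth, and no test was made.

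**Figure D4:**
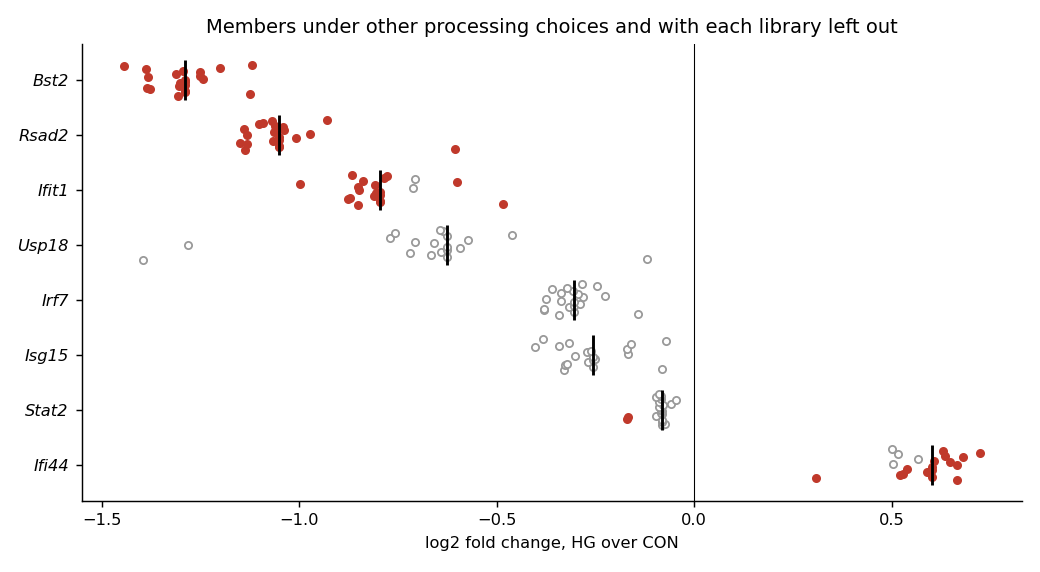
Log2 fold change of HG over CON for the 8 tested members under each other processing choice and with each library left out (1 point each, filled red where the adjusted p was under 0.05), with a black bar at the value reported. Bst2 and Rsad2 are filled throughout, Ifit1 and Ifi44 include open points, Stat2 is filled under 2 scalings, and no member changes sign.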

How the data were processed

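Heart RNA was sequenced from stranded mRNA libraries. The authors deposited 1 table of FPKM for 18025 genes and 10 libraries, each gene count divided by gene length and library size. The submitters' processing notes name fastp, HISAT2, HTSeq, R 3.2.0 and the build mRatBN7.2. Columns were matched to samples by library name, and the table's annotation columns were not used as results. Its values were whole reads in 100% of genes within 0.02 reads, which gave the depth. The main test was limma 3.58.1 (R 4.3.3) with a trend, on log2(FPKM + 0.1), since FPKM are not counts; this pseudocount understates the fold change of low genes. The methods' DEG limits (adjusted p under 0.05, more than 2-fold) were kept, and 3483 genes with a mean under 0.1 FPKM were left out. On simulated data for HG against CON over 14444 genes, 180 of 192 changed genes were called, as were 7 unchanged genes. Few genes were changed there, each by 2-fold or more, whereas calls in the real data were common. The simulation therefore does not measure how reliable the calls at small fold changes are. A voom fit on the recovered reads called 5960 genes, against 5836.

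The members and lists were chosen with earlier results of these data known. All members are named, and from each pathway list up to 5 higher and 5 lower genes with the smallest adjusted p, beside Irf9, Irf3, Ifnar1, Ifnar2 and Cxcl10. Other settings were 2 pseudocounts, 2 filters, other scalings, no trend, array weights, a replicate block, hemoglobin genes left out, voom and each library left out. Symbols were matched to RefSeq (GRCr8) names, and list genes without a match, Iigp1 among them, were not analysed here. A few list genes are not reported here and were left out of the counts of their list.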

Additional observations from a re-analysis of the deposited data

Results flagged for a closer look

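In 88 groups of 5 libraries examined, 7 held a library far from the other 4 by Dixon's test, which chance does in about 5% of groups. Among the members, Rsad2 was at 0.511 FPKM in HG 5 against 0.784 to 0.886 FPKM in the other HG libraries, and without that library its log2 fold change was -0.93. Stat2 was at 7.74 FPKM in HG 1 against 8.63 to 8.96 FPKM in the others. In CON 1, Cxcl11 was at 0.471 FPKM against 0.156 to 0.214 FPKM, and Rnaseh2b was at 4.83 FPKM against 5.73 to 6.05 FPKM. In HG 4, Stat6 was at 14.1 FPKM against 15.8 to 16.2 FPKM, and Pias1 was at 7.70 FPKM against 8.27 to 8.49 FPKM. Irf9 was at 4.44 FPKM in HG 5 against 3.50 to 3.75 FPKM.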

How the results depend on the processing

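None of the 8 tested members changed sign under any of the 19 to 21 other settings each was fitted with. The number of members called was 4, and it ranged from 2 to 4 when each library was left out (2 without CON 1 and 2 without HG 2). It was 5 with median-of-ratios factors and with quantile normalization, and 3 with a filter at a mean of 1 FPKM, where only 4 members were tested. The number of members that were DEGs was 2, with a range of 1 to 2 when each library was left out, and 1 with a pseudocount of 1, which compresses low values by construction. Of the other interferon-induced genes, 13 were called, with a range of 11 to 14 when each library was left out and 9 to 15 under the other settings. Over all genes tested, calls were 4127 higher and 1709 lower, against 2289 higher and 2545 lower with median-of-ratios factors, which moved the median log2 fold change from 0.09 to 0.01. Of the 40 other genes named, 24 kept their side of the threshold under every setting, 15 lost the call under at least 1, and Ifi44l gained it. CON and HG share replicate numbers in the labels. With the replicate block, 4 members were called, 2 were DEGs, 11 other interferon-induced genes were called, and 5096 of all genes were called. Same-numbered libraries did not deviate together (correlations of -0.126 to 0.108), and 1 of 10 libraries correlated best with its own number, so the numbers were not read as pairs. The ratios to partner genes were recomputed with a pseudocount of 0.01 and without each library, alternatives chosen after seeing the data, and kept their direction. Depth limited Ifit3, Isg15 and Usp18, which had 0 to 11 reads per library.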
